A study of Mus musculus with 80 samples.

Results

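The transcripts described here come from 42 mouse genes that cells use to copy their DNA and divide, 18 acting in S phase and 24 in mitosis. They were picked by gene symbol, and all 42 were found among the 50365 named rows used and passed the filter on low values that left 21101 genes. RNA had been sequenced from whole blood of female C57BL/6 mice, 80 libraries in 14 groups, to follow how blood answers an external dose rate that falls as it would with internal 137Cs. In that variable dose rate mode (VarDR) the irradiated mice had received 2 Gy by day 2 (5 libraries, labelled dose rate 1 Gy per day), 2.8 Gy by day 3 (6 libraries, 0.77 Gy per day), 4.1 Gy by day 5 (6 libraries, 0.62 Gy per day) or 9.7 Gy by day 30 (6 libraries, 0.056 Gy per day). In the acute mode the dose was given at 0.73 Gy per min, and the groups had 2 Gy on day 2 (6 libraries), 2.8 Gy on day 3 (3 libraries) and 4.1 Gy on day 5 (6 libraries). Each of these 7 irradiated groups has a sham group of its own mode and day, with 6 libraries each. The labels give no age and no engineered allele.

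Before a cell copies its DNA, minichromosome maintenance (MCM) helicases are loaded on origins and then fired by cyclin-dependent kinases; later the chromosomes condense, attach to the spindle and are pulled apart. Transcription of S phase genes is driven largely by E2F factors, and that of mitotic genes by complexes that bind the cell cycle genes homology region (CHR), often beside CCAAT boxes. Most leucocytes in blood rest outside the cycle, whereas reticulocytes, the young red cells, still carry RNA made by dividing erythroblasts in the marrow. Alas2 encodes the erythroid enzyme that starts haem synthesis, and it served as the measure of red cell transcripts against which each gene was set. In whole blood, fewer cells of a type and less RNA per cell cannot be told apart.

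Promoter windows from RefSeq (GRCm38.p6, 250 bases before to 50 after the transcription start) were matched for 35 of the 42 genes. The 4 windows below are shown because they pair promoter letters of each kind with different behaviour in blood. Ube2c (chr2:164769679-164769978, plus strand) and Top2a (chr11:99024140-99024439, minus strand) are mitosis genes, and Cdc6 (chr11:98907901-98908200, plus strand) and Mcm5 (chr8:75109259-75109558, plus strand) are S phase genes. Capitals mark the letters found on either strand: TTTGAA or TTCGAA (CHR), CCAAT, and TTTCCCGC, TTTGGCGC or TTTCGCGC (E2F). The 2 E2F matches of Mcm5 overlap each other, as does 1 pair of CCAAT matches in Ube2c.
Ube2c: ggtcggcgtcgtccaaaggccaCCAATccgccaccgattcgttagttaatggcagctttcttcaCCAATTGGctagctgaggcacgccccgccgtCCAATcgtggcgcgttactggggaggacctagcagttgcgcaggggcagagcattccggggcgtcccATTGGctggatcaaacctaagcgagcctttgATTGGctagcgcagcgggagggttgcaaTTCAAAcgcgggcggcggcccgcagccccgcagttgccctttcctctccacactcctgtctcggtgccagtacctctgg
Top2a: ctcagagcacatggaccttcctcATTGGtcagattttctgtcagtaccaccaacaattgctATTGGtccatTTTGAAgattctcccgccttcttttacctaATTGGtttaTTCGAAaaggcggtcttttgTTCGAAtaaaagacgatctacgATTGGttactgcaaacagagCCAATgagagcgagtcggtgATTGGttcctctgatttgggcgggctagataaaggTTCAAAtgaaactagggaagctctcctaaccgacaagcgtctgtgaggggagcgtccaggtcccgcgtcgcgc
Cdc6: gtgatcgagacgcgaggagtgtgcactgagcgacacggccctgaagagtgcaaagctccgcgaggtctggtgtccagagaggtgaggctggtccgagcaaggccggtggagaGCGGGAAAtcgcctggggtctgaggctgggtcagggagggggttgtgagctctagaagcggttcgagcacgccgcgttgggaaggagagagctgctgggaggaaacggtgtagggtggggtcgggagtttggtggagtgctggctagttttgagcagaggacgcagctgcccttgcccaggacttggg
Mcm5: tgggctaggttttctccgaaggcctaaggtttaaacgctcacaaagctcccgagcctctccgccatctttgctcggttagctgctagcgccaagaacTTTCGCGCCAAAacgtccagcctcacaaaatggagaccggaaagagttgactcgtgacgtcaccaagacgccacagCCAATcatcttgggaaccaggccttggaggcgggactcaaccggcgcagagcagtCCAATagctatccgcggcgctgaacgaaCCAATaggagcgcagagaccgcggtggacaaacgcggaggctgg
A CHR match was present in 16 of 20 mitosis genes (80%) and 4 of 15 S phase genes (26.7%), beside 21.7% of all 27025 genes with a window. A CCAAT match was present in 17 of 20 (85%) and 10 of 15 (66.7%), beside 41.1% of all genes. E2F letters were found in 1 of 20 mitosis genes (5%) and 6 of 15 S phase genes (40%), beside 2.12% of all genes.

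The labelled tissue was checked by its markers: all 14 B cell, all 14 T cell, all 12 mature neutrophil and 23 of 24 red cell genes passed the filter. The sheet that held the values is titled for lung, whereas the labels say blood. Of 9 genes of lung epithelium, listed after the values were seen, 4 did not pass the filter, and all 9 together took at most 6.73e-04% of the values of any library. Sftpc, the surfactant protein of the alveolar lining, was at 0 in 64 of 80 libraries and at most 2.04e-04%. Deposited column totals, in units of 1000000, were 15.9 to 77.7 (median 34.5), and 15637 to 27535 genes were above 0. On VarDR day 30 the genes above 0 were 15637 to 19039 in irradiated and 19842 to 23414 in sham libraries. On acute day 3 they were 24589 to 27535 in irradiated and 16684 to 22783 in sham libraries. These ranges overlapped in the other comparisons with sham. The part of these differences in the results was not tested. Globin RNA had been depleted in preparation, and haemoglobin genes still took 2.07% to 9.84% of the values in sham libraries. In 20 libraries, 14 irradiated and 6 sham, 20 liver genes took over 0.5% of the values, up to 4.3%. Nothing in the labels says that libraries of a group came from separate cages or days, so p-values measure the spread between these libraries.

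All values below are deposited values rescaled so that the median gene is level between columns, and every difference is therefore relative to the median gene, on the log2(value + 1) scale. This matters here because a few abundant genes took a changing share of the total. After that rescaling, the column totals, in units of 1000000, on VarDR day 30 were 76.8 to 122 in irradiated and 26.5 to 50.9 in sham libraries, and on acute day 3 they were 17.9 to 19.7 in irradiated and 38.8 to 48.6 in sham libraries. With columns set to equal totals instead, a scaling chosen after the data were seen, the median of all genes shifted to -1.32 on VarDR day 30, 0.72 on VarDR day 3 and 0.80, 1.43 and 0.62 on acute days 2, 3 and 5. The deposited scaling itself gave medians of 0.50, 1.20 and 0.88 for all genes on the 3 acute days.

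**Figure D1:**
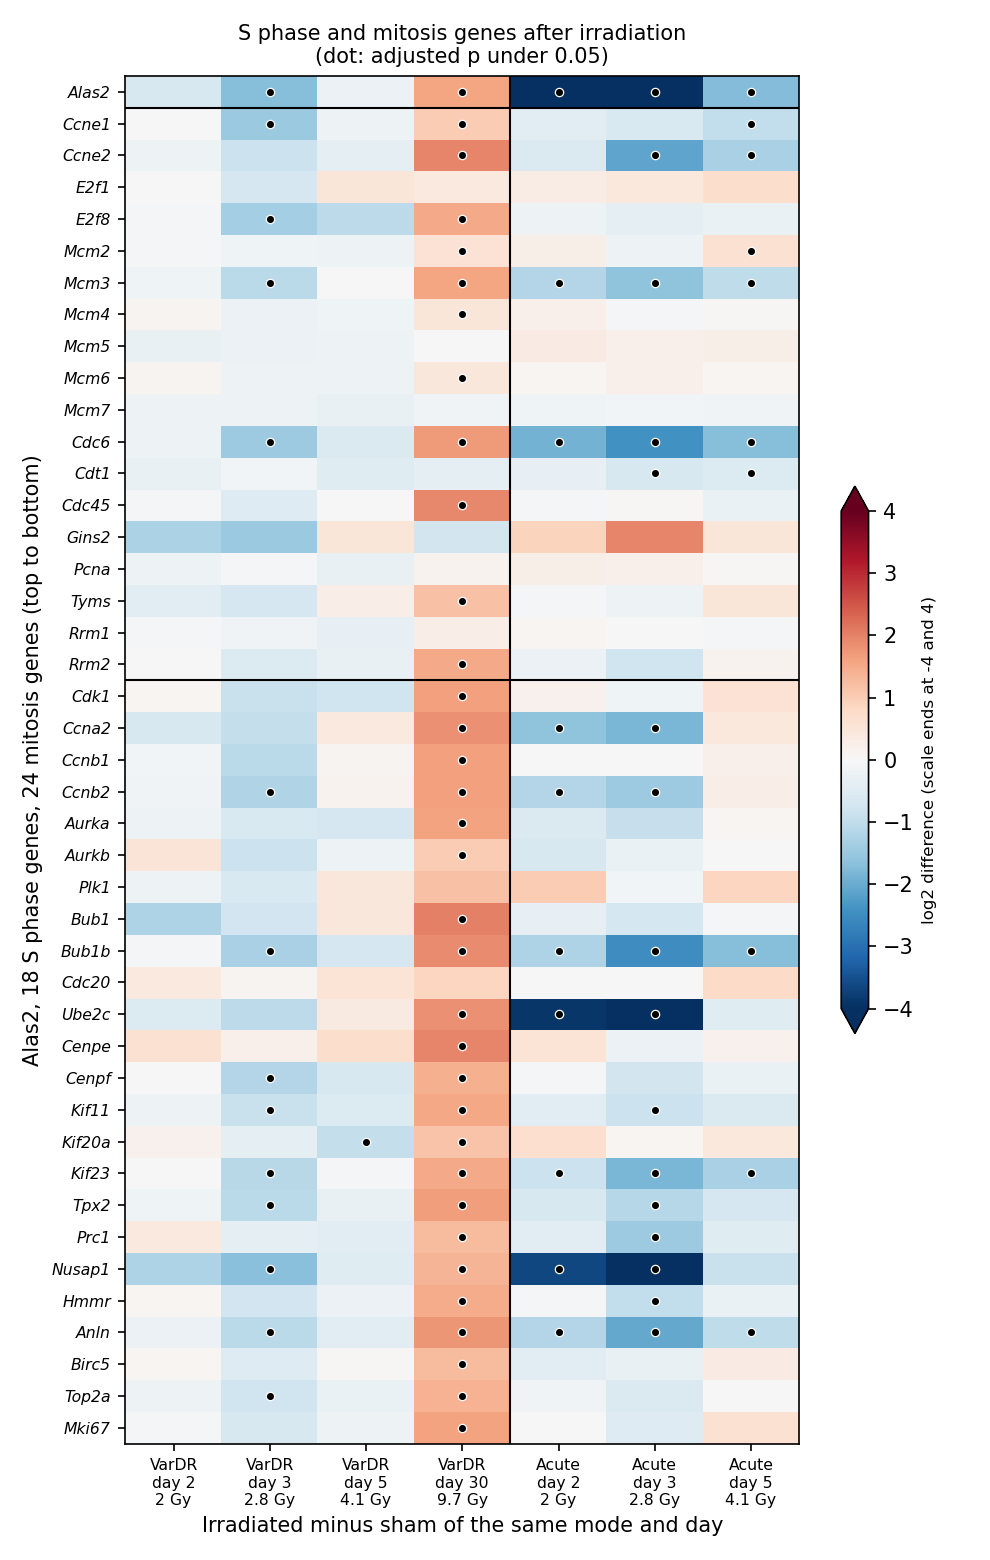
Log2 difference, irradiated minus sham of the same mode and day and relative to the median gene, for Alas2 (top row), the 18 S phase genes and the 24 mitosis genes, with dots where the adjusted p was under 0.05. The VarDR day 30 column has 33 dots among the 42 genes, all on the higher side, a split that became 2 higher and 9 lower with columns set to equal totals, and Ube2c and Nusap1 are the darkest rows under Alas2 on acute days 2 and 3.

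Relative to the median gene, 33 of the 42 genes were higher in irradiated mice 30 days into the falling dose rate and none was lower by limma at an adjusted p under 0.05, beside 12.7% of all genes tested that were higher. The median log2 difference was 1.45 over the 42 genes and -0.18 over all genes. Against the column total the same 42 genes had a median of 0.08, with 2 higher and 9 lower. All 21101 genes had a median of -1.32 there, with 60 higher and 12254 lower. A new column scale moves every gene of a comparison by nearly the same amount. The gap between these medians therefore could not test the scaling. Before day 30, 13 genes were lower on VarDR day 3 (5.24% of all genes were) and 1 on VarDR day 5 (3.38%). On VarDR day 2 none passed, beside 3.27% of all genes in either direction, and 1 was higher and 2 lower at an unadjusted p under 0.05. With equal totals, 9 were higher and 2 lower on VarDR day 3, 1 was higher on VarDR day 5 and 1 was lower on VarDR day 2. Over all 21101 genes, that scaling gave 7087 higher and 162 lower on VarDR day 3. It gave 1026 and 212 on VarDR day 5, and 501 and 79 on VarDR day 2.

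After acute irradiation 9 genes were lower on day 2 (7.47% of all genes were), 15 on day 3 (8.73%) and 8 on day 5 (9.12%), and 1 was higher on day 5 (9.76%). These splits depend on the scaling. In the values as deposited, 8 were higher and 5 lower on day 2, 12 higher and 7 lower on day 3, and 24 higher and none lower on day 5. With equal totals, 19 were higher and 4 lower on day 2, 20 and 7 on day 3, and 18 and 3 on day 5. Most calls over all 21101 genes were on the higher side too. As deposited, 5426, 11711 and 10125 of them were higher and 876, 601 and 442 lower on days 2, 3 and 5. With equal totals 7789, 13196 and 5875 were higher and 641, 562 and 577 lower. Ube2c and Nusap1 were lower on acute days 2 and 3 under all of these scalings, and with equal totals their log2 differences were -3.08 and -4.19 for Ube2c and -2.84 and -3.50 for Nusap1.

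Most of the calls described below for single genes did not pass with equal totals. Of the 33 higher genes of VarDR day 30 only Bub1b and Cenpe still passed in that direction, 28 did not pass, and Mcm2, Mcm4 and Mcm6 passed in the other. Of the 13 lower on VarDR day 3, Cdc6 and Nusap1 still passed, and the 1 on VarDR day 5 did not. Of the 9 lower on acute day 2, Cdc6, Ccna2, Ube2c and Nusap1 still passed, and of the 15 on acute day 3, Ccne2, Cdc6, Bub1b, Ube2c, Kif23, Nusap1 and Anln did. Of the 8 lower on acute day 5, Cdc6, Bub1b and Kif23 still passed, though none of the 8 did as deposited, and Mcm2 stayed higher there under all of these scalings.

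Alas2 sets the scale for red cell transcripts. On VarDR day 30 it had 2530172 to 4528257 (median 3208417) in irradiated mice, against 571281 to 1873767 (median 1070143) in sham mice, with no overlap (3-fold higher, limma adjusted p = 1.24e-04). On VarDR day 3 it had 264066 to 1076132 (median 701944) in irradiated mice, against 979148 to 3129119 (median 1793136) in sham mice, lower but with overlap (3.28-fold, adjusted p = 1.04e-04). After acute irradiation it was lower on every day and the groups never overlapped. On acute day 2 it had 19188 to 46607 (median 34461) in irradiated mice, against 658355 to 2274605 (median 818007) in sham mice, 28.9-fold lower (limma adjusted p = 6.06e-20). On acute day 3 it had 4052, 4489.7 and 7078 in irradiated mice, against 1021035 to 1786931 (median 1356373) in sham mice, 258-fold lower (adjusted p = 3.82e-27). On acute day 5 it had 138364 to 384928 (median 267531) in irradiated mice, against 620189.6 to 1143128 (median 874807) in sham mice, 3.32-fold lower (adjusted p = 2.46e-05). The acute level was thus lowest on day 3 and nearer to sham on day 5.

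On VarDR day 2 Alas2 had 326277, 396256, 410804, 545201 and 653294 in irradiated mice, against 414609.9 to 1981193 (median 541833) in sham mice, and on VarDR day 5 it had 265837 to 1384513 (median 883743) in irradiated mice, against 590945 to 1169879 (median 962503) in sham mice. Neither difference passed (log2 -0.65 ± 0.34 and -0.25 ± 0.33, limma adjusted p = 0.422 and 0.732). With equal totals Alas2 differed by 0.21 on VarDR day 30 (adjusted p = 0.357) and stayed lower on VarDR day 3 and all acute days. Of the 23 red cell genes, 22 were higher on VarDR day 30 (2 with equal totals), 14 lower on VarDR day 3 (6 with equal totals), and 22 and 23 lower on acute days 2 and 3 (22 and 21 with equal totals). On day 5 after acute irradiation, 8 of them were lower, against 3 higher and 7 lower with equal totals (median -0.09) and 3 higher and 1 lower as deposited (median 0.19). Their sum was 0.531% to 1.55% in irradiated and 7.54% to 15% in sham libraries on acute day 2, and 0.153% to 0.193% in irradiated and 9.74% to 12.6% in sham libraries on acute day 3. On day 30 of VarDR exposure these shares overlapped, at 8.77% to 11.5% in irradiated and 5.82% to 12.6% in sham libraries. None of the 23 was at 0 throughout a group.

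**Figure D2:**
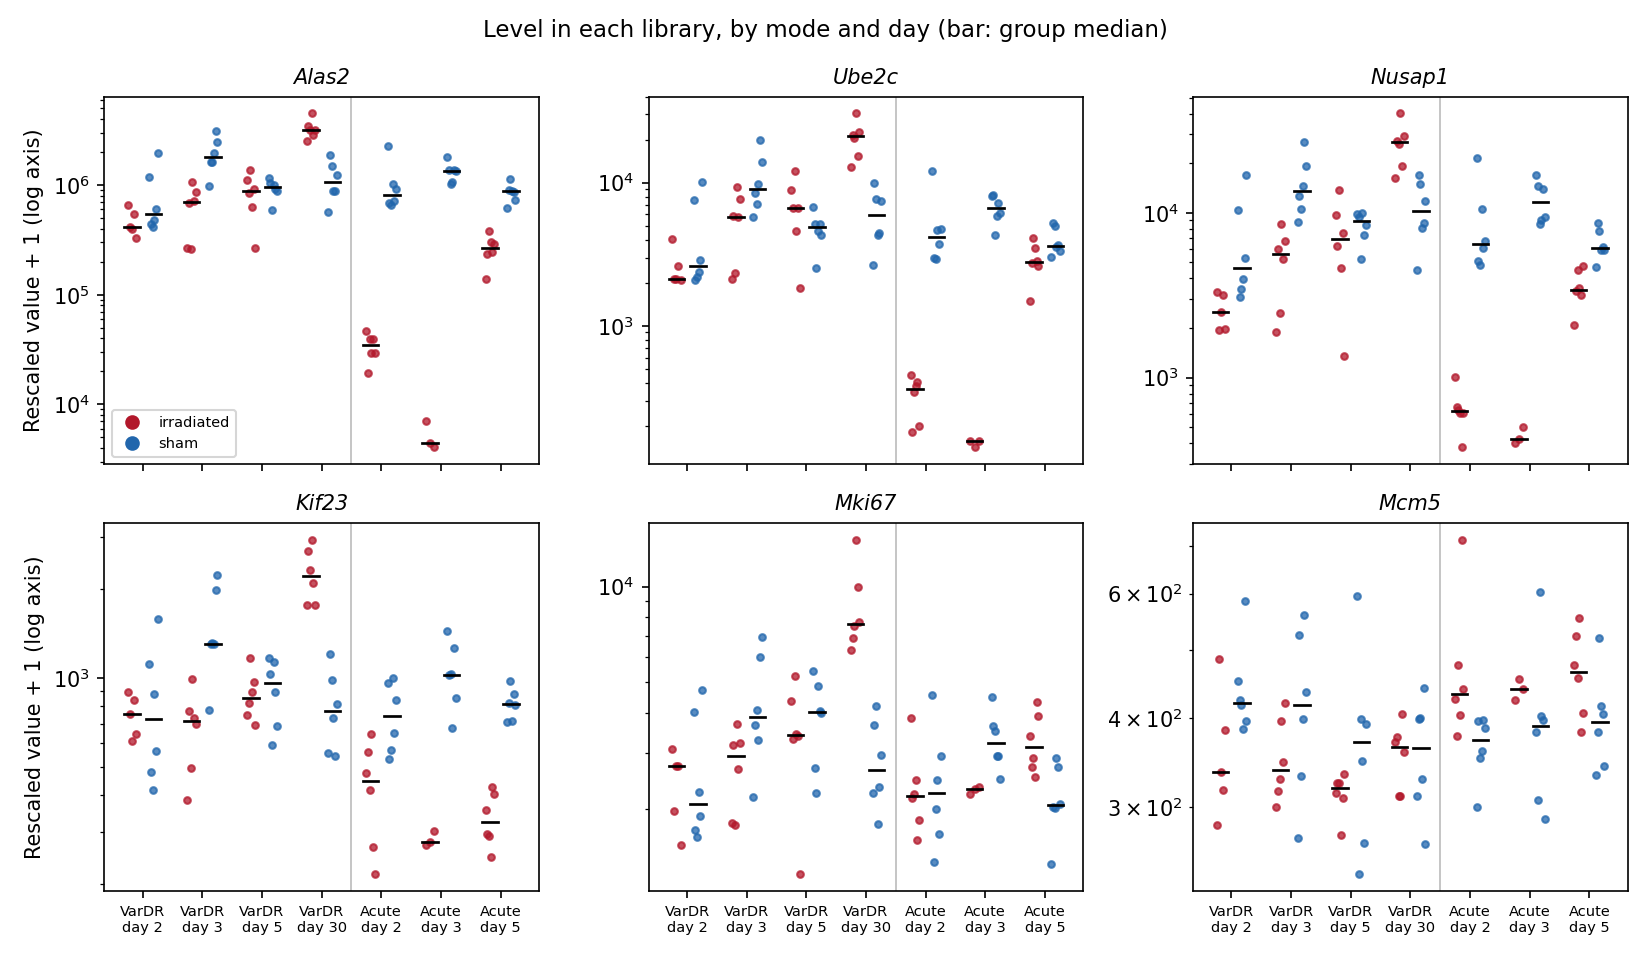
Rescaled value + 1 (log axis) of Alas2 and 5 cell cycle genes in every library, irradiated (left, red) and sham (right, blue) for each mode and day, with bars at the group medians. Ube2c and Nusap1 are far below sham on acute days 2 and 3 as Alas2 is, whereas for Mki67 and Mcm5 the acute difference relative to the median gene did not pass on any day, though with equal totals both genes were higher on all 3 acute days.

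Among the G1/S regulators, 3 of 4 were higher on VarDR day 30, all with no overlap between irradiated and sham libraries. The share of all genes without overlap was not counted. Ccne2, a cyclin E, was 3.88-fold higher (limma adjusted p = 1.62e-05), E2f8, a repressor among the E2F factors, 2.84-fold (adjusted p = 0.00399) and Ccne1, the other cyclin E, 2.01-fold (adjusted p = 0.016), the last of which had the opposite sign with equal totals. E2f1, an activator of S phase genes, passed in none of the 7 comparisons, with log2 differences of -0.66 to 0.69 relative to the median gene. With equal totals it was higher on acute days 2, 3 and 5 (1.08, 1.65 and 1.34, limma adjusted p = 0.0353, 0.00532 and 0.011). On day 3 of VarDR exposure Ccne1 had 12.1 to 65.9 (median 54.2) in irradiated mice, against 55.9 to 207 (median 113) in sham mice. It was 2.78-fold lower with overlap (adjusted p = 7.93e-04), and E2f8 was 2.54-fold lower (adjusted p = 0.0213). After acute irradiation Ccne2 was 4.31-fold lower on day 3 and 2.45-fold lower on day 5 (adjusted p = 1.10e-04 and 0.00431), and Ccne1 was 2-fold lower on day 5 (adjusted p = 0.0207). That Ccne1 call ended without irradiated replicate 6 (log2 -0.84, adjusted p = 0.0751) or sham replicate 2 (-0.90, adjusted p = 0.0555), and with equal totals (-0.35, adjusted p = 0.385). The E2f8 call of VarDR day 3 ended without irradiated replicates 1 or 3 or sham replicates 5 or 6 (adjusted p of 0.0506 to 0.147). None of the 4 passed on acute day 2 relative to the median gene.

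The 6 subunits of the MCM helicase, which unwinds DNA at the fork, did not move as one. Mcm3 was 2.96-fold higher on VarDR day 30 (limma adjusted p = 1.49e-05), 2.09-fold lower on VarDR day 3 (adjusted p = 0.00575), and 2.27-fold, 3.03-fold and 2.01-fold lower on acute days 2, 3 and 5 (adjusted p = 9.97e-04, 2.49e-04 and 0.00557). Mcm2, Mcm4 and Mcm6 were higher on VarDR day 30 by 1.5-fold, 1.39-fold and 1.38-fold (adjusted p = 0.0136, 0.00591 and 0.0113), whereas with equal totals all 3 were lower (-0.79, -0.90 and -0.91). Without irradiated replicates 4 or 5 of VarDR day 30, Mcm2 did not pass there (log2 0.47 to 0.49, adjusted p of 0.0571 to 0.0622). Mcm2 was the only one of the 42 to be higher on acute day 5, at 531 to 609 (median 582) in irradiated mice, against 350.1 to 412 (median 372) in sham mice. The groups did not overlap (1.52-fold higher, adjusted p = 0.0125).

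Mcm5 and Mcm7 passed in none of the 7 comparisons, and their irradiated and sham ranges overlapped in all 7. On day 3 after acute irradiation, where Alas2 was lowest, Mcm5 had 424, 439 and 453 in irradiated mice, against 287 to 602 (median 389) in sham mice, and Mcm7 had 441, 463 and 515 in irradiated mice, against 395 to 736 (median 477) in sham mice. On VarDR day 30, Mcm5 had 309.9 to 405 (median 363) in irradiated mice, against 265 to 440.0 (median 362) in sham mice, and Mcm7 had 398 to 608 (median 549) in irradiated mice, against 458 to 739 (median 559.9) in sham mice. With equal totals, Mcm5 differed by -1.36 on VarDR day 30 and by 1.15, 1.42 and 0.88 on acute days 2, 3 and 5 (adjusted p = 1.02e-06, 7.29e-05, 4.02e-05 and 0.00251), and Mcm7 by -1.50, 0.64, 1.12 and 0.51, the last of which did not pass (adjusted p = 0.105). Over the 7 comparisons the log2 differences relative to the median gene were -0.31 to 0.34 for Mcm5 and -0.29 to -0.11 for Mcm7. Mcm7 carries 3 microRNA genes on its own strand and overlaps Cops6 and Ap4m1 on the other.

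Cdc6 and Cdt1, the factors that together load the helicase, also parted. Cdc6 on VarDR day 30 had 763 to 1625 (median 1025) in irradiated mice, against 180.0 to 514 (median 302) in sham mice, 3.25-fold higher with no overlap (limma adjusted p = 4.00e-05), and it was 2.74-fold lower on VarDR day 3 (adjusted p = 8.99e-04). It was 3.68-fold and 5.33-fold lower on acute days 2 and 3 (adjusted p = 4.11e-06 and 1.61e-06). On acute day 5 it had 76.6 to 129.5 (median 102) in irradiated mice, against 289 to 381 (median 330.0) in sham mice, still 3.24-fold lower with no overlap (adjusted p = 3.04e-05). Cdt1 on acute day 3 had 219.5, 231 and 236 in irradiated mice, against 251 to 499.7 (median 361) in sham mice (1.56-fold lower, adjusted p = 0.0401). On day 5 after acute irradiation it had 176 to 300.4 (median 279) in irradiated mice, against 335 to 413 (median 361) in sham mice (1.47-fold lower, adjusted p = 0.0273). Both Cdt1 differences turned positive as deposited and with equal totals, and each lost its call when single libraries were left out (on day 3 any of the 3 irradiated ones or sham replicates 2, 4 or 6; on day 5 irradiated replicates 5 or 6 or sham replicates 3 or 6). Without those libraries the log2 differences were -0.66 to -0.54, adjusted p of 0.0629 to 0.138 on day 3 and -0.54 to -0.46, adjusted p of 0.0502 to 0.101 on day 5. On day 30 of VarDR exposure Cdt1 had 135 to 368 (median 248) in irradiated mice, against 239 to 397 (median 336) in sham mice and did not pass relative to the median gene. With equal totals it was lower there (-1.71, limma adjusted p = 1.61e-07).

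Cdc45, which joins the loaded helicase when an origin fires, had 152 to 262 (median 233) in irradiated mice, against 39.5 to 82.9 (median 55.8) in sham mice on VarDR day 30, 3.82-fold higher with no overlap (limma adjusted p = 4.66e-07). It passed in no other comparison with sham relative to the median gene. With equal totals it was higher on acute days 2 and 3 (0.71 and 1.27, limma adjusted p = 0.0411 and 0.00177). Its VarDR day 30 difference did not pass there (0.57, adjusted p = 0.0837). Gins2, a subunit of the same active helicase, had group means of only 10.3 to 45 and passed in none relative to the median gene. With equal totals Gins2 was lower on VarDR day 30 (-1.74, adjusted p = 0.0341) and higher on acute day 3 (3.11, adjusted p = 0.00226). Of the genes of DNA synthesis and nucleotide supply, Rrm2, the regulated subunit of ribonucleotide reductase, was 2.86-fold higher on VarDR day 30 (adjusted p = 9.45e-06), and Tyms, which makes thymidylate, 2.23-fold (adjusted p = 0.00487), which had the opposite sign with equal totals. Pcna, the sliding clamp, and Rrm1, the large subunit of the reductase, passed in none of the 7, with log2 differences of -0.29 to 0.24 and -0.33 to 0.25 relative to the median gene. With equal totals both passed in 5 of the 7, lower on VarDR day 30 (-1.23 and -1.12, adjusted p = 1.59e-06 and 1.57e-05) and higher on VarDR day 3 (0.76 and 0.69) and acute days 2, 3 and 5 (1.04, 1.44 and 0.72 for Pcna, 0.89, 1.26 and 0.60 for Rrm1). Pcna has 2 pseudogenes named after it and Tyms 1, and how reads were divided among them is uncertain.

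The mitotic cyclins and the kinase they activate were all higher on VarDR day 30 with no overlap: Ccna2 3.59-fold, Cdk1 3.15-fold, Ccnb1 3.15-fold and Ccnb2 3.1-fold (limma adjusted p = 3.68e-05, 3.81e-04, 0.00419 and 5.00e-05). How many of all genes had no overlap there was not counted. Ccna2, cyclin A2, which acts in S phase and early mitosis, had 2526 to 5159 (median 3609) in irradiated mice, against 512 to 1556 (median 1060.2) in sham mice. After acute irradiation the 4 genes split. Ccna2 on acute day 2 had 157 to 514 (median 275) in irradiated mice, against 518 to 2389.6 (median 749) in sham mice (3.03-fold lower, adjusted p = 2.93e-04). On acute day 3 it had 308, 319.6 and 348 in irradiated mice, against 701 to 1950.1 (median 1109) in sham mice (3.57-fold lower, adjusted p = 7.56e-04). On acute day 5 it had 697 to 1048 (median 875) in irradiated mice, against 489.9 to 860.3 (median 686) in sham mice and did not pass. Ccnb2 was 2.24-fold and 2.73-fold lower on acute days 2 and 3 (adjusted p = 0.00443 and 0.00367). Cdk1 and Ccnb1 passed on no acute day relative to the median gene, with log2 differences of -0.17 to 0.58 and -0.02 to 0.19. With equal totals Cdk1 was higher on all 3 acute days (0.96, 1.05 and 1.24, limma adjusted p = 0.0246, 0.0286 and 0.00426). That scaling also gave Ccnb1 as higher on acute day 3 (1.20, adjusted p = 0.0373) and Ccna2 on acute day 5 (1.07, adjusted p = 5.53e-04). Ccnb1 and Ccnb2 each have a pseudogene named after them.

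On the earlier VarDR days Ccna2 overlapped with sham and did not pass. On day 2 it had 322, 446, 488, 501 and 534 in irradiated mice, against 355 to 2202 (median 611) in sham mice. On day 3 it had 377 to 1442 (median 862) in irradiated mice, against 1003 to 2907 (median 1345) in sham mice, and on day 5 it had 387 to 2335 (median 1265) in irradiated mice, against 635 to 1449 (median 849) in sham mice.

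Bub1b, a spindle checkpoint protein that delays anaphase until chromosomes are attached, changed in 5 comparisons. It was 3.68-fold higher on VarDR day 30 (limma adjusted p = 7.35e-06), 2.44-fold lower on VarDR day 3 (adjusted p = 0.00365), and 2.34-fold, 5.52-fold and 3.24-fold lower on acute days 2, 3 and 5 (adjusted p = 0.00333, 1.07e-06 and 3.12e-05). Bub1, the checkpoint kinase, was 4.1-fold higher on VarDR day 30 (adjusted p = 9.32e-04), the largest fold of the 42 there. The Aurora kinases Aurka and Aurkb were 3.06-fold and 2.02-fold higher (adjusted p = 8.63e-05 and 0.00951), though Aurkb had the opposite sign with equal totals. Plk1, the polo-like kinase, passed in none of the 7 relative to the median gene, and the standard errors of its log2 differences were 0.63 to 0.77. With equal totals it was higher on acute day 2 (1.80 ± 0.62, adjusted p = 0.0179).

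The pair that work with the anaphase-promoting ubiquitin ligase differed from each other. Ube2c, the enzyme that hands it ubiquitin, had on acute day 2 181 to 452 (median 359) in irradiated mice, against 2911 to 12082 (median 4197) in sham mice, 14.7-fold lower (limma adjusted p = 1.25e-13). On day 3 after acute irradiation it had 140.3, 155 and 156 in irradiated mice, against 4289.7 to 8259 (median 6646) in sham mice, 42.7-fold lower (adjusted p = 5.77e-16). The groups were far apart on both days. On day 5 after acute irradiation it had 1500.4 to 4104 (median 2799.6) in irradiated mice, against 3011 to 5189 (median 3627) in sham mice and did not pass (adjusted p = 0.422). On VarDR day 30 it had 12964 to 30589 (median 21156) in irradiated mice, against 2649 to 9874 (median 5955) in sham mice, 3.58-fold higher with no overlap (adjusted p = 8.46e-05). Cdc20, an activator of the same ligase, passed in none of the 7 relative to the median gene and differed by log2 -0.01 ± 0.47 and 0.02 ± 0.57 on acute days 2 and 3. With equal totals it was higher on acute day 5 (1.42, adjusted p = 0.0145).

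On the earlier VarDR days Ube2c overlapped with sham and did not pass. On day 2 it had 2074, 2125, 2129, 2609 and 4055 in irradiated mice, against 2075 to 10099.6 (median 2614) in sham mice. On day 3 it had 2109 to 9335 (median 5782) in irradiated mice, against 5752 to 19719 (median 9098) in sham mice, the nearest of the 3 to the threshold (log2 -1.05 ± 0.37, limma adjusted p = 0.0545). On day 5 it had 1825 to 11999.9 (median 6701) in irradiated mice, against 2519 to 6804 (median 4879) in sham mice.

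All 11 genes of the kinetochore, spindle and cytokinesis were higher on VarDR day 30, by log2 1.13 to 1.94 relative to the median gene, with Kif20a, Prc1, Nusap1 and Birc5 of opposite sign with equal totals. Cenpe, a kinesin that moves chromosomes to the spindle equator, had 945 to 1417 (median 1187) in irradiated mice, against 187 to 458 (median 292) in sham mice, 3.84-fold higher with no overlap (limma adjusted p = 1.86e-07). With equal totals it was still higher (0.57, adjusted p = 0.044). Kif11, the motor that pushes spindle poles apart, had 1225 to 2133 (median 1534) in irradiated mice, against 412 to 923 (median 475) in sham mice (2.92-fold higher, adjusted p = 5.28e-07). Anln, anillin of the contractile ring, had 983 to 2026 (median 1274) in irradiated mice, against 178 to 629.6 (median 404) in sham mice (3.42-fold higher, adjusted p = 9.69e-07). Neither of these overlapped.

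Nusap1, which bundles spindle microtubules, showed the next largest decrease after Ube2c on acute days 2 and 3. On day 2 after acute irradiation it had 376 to 1010.1 (median 625) in irradiated mice, against 4797 to 21438 (median 6461) in sham mice, 12.5-fold lower (limma adjusted p = 2.14e-12). On acute day 3 it had 399, 423 and 498 in irradiated mice, against 8522 to 17005 (median 11712) in sham mice, 26.6-fold lower (adjusted p = 2.48e-13). A wide gap lay between the groups on both days. On acute day 5 it had 2078 to 4775 (median 3423) in irradiated mice, against 4674 to 8652 (median 6085) in sham mice and did not pass (adjusted p = 0.0879). On day 30 of VarDR exposure it had 16164 to 40251 (median 26809) in irradiated mice, against 4493 to 16883 (median 10232) in sham mice, 2.55-fold higher with overlap (adjusted p = 0.00432). On VarDR day 3 it had 1878 to 8577 (median 5659.7) in irradiated mice, against 8741 to 26928 (median 13569) in sham mice, 3.18-fold lower with no overlap (adjusted p = 0.00102). It did not pass on VarDR day 2, at 1939, 1983, 2501, 3168 and 3307 in irradiated mice, against 3075 to 16981 (median 4657) in sham mice, or on VarDR day 5, at 1359.6 to 13775 (median 6949) in irradiated mice, against 5277 to 9923 (median 8923) in sham mice. With equal totals Nusap1 was lower on VarDR day 2 (-1.10, adjusted p = 0.00491). Of the 42 genes, 13 overlap a gene on the other strand, among them Ube2c (Tnnc2), Nusap1 (Oip5) and Ccna2 (Exosc9). The kit kept strand, but the strand setting of the counting is not given in the sources used here.

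Kif23, a kinesin of the central spindle, had the smallest p of the 42 among the genes lower on VarDR day 3, at 386 to 993 (median 712) in irradiated mice, against 779 to 2230.0 (median 1304) in sham mice (2.17-fold lower with overlap, limma adjusted p = 6.81e-04). It had the smallest on acute day 5 too, at 247 to 426 (median 325) in irradiated mice, against 709 to 970.4 (median 813) in sham mice (2.46-fold lower with no overlap, adjusted p = 2.04e-05). Anln was 2.09-fold and 2.05-fold lower on those days (adjusted p = 0.0043 and 0.00308), and both genes were lower on acute days 2 and 3. Kif20a, a kinesin of the same midzone, was the only one of the 42 to pass on VarDR day 5, at 26.3 to 135 (median 106) in irradiated mice, against 73.7 to 235 (median 177) in sham mice (1.95-fold lower with overlap, adjusted p = 0.0313). Leaving out any of 6 libraries ended that call: irradiated replicate 4 (log2 -0.85, adjusted p = 0.085) or 6 (-0.65, 0.174), or sham replicate 1, 4, 5 or 6 (-0.84 to -0.97, with adjusted p of 0.0501 to 0.0868).

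Top2a, topoisomerase II of mitotic chromosomes, and Mki67, which coats them and marks cycling cells, were 2.6-fold and 3.06-fold higher on VarDR day 30 (limma adjusted p = 2.90e-06 and 6.79e-06). On acute days 2 and 3 Top2a differed by log2 -0.13 ± 0.23 and -0.58 ± 0.28 and Mki67 by -0.03 ± 0.28 and -0.51 ± 0.34, and none of the 4 differences passed relative to the median gene. With equal totals all 4 passed, at 0.67 and 0.65 for Top2a (adjusted p = 0.00141 and 0.00656) and 0.78 and 0.72 for Mki67 (adjusted p = 8.51e-04 and 0.0067), and on acute day 5 Mki67 was at 1.27. Tpx2, which assembles spindles around chromatin, Prc1, a microtubule crosslinker, and Hmmr, a spindle protein, were lower on acute day 3 (2.19-fold, 2.76-fold and 1.98-fold, adjusted p = 0.00968, 5.68e-04 and 0.0242), as was Kif11 (1.8-fold, adjusted p = 0.0242). Tpx2, Hmmr and Kif11 had the opposite sign with equal totals, and Hmmr and Kif11 also as deposited. Kif11 and Hmmr did not pass on acute day 3 without irradiated replicates 1 or 2, nor without sham replicate 1 for Kif11 (log2 -0.81 to -0.75, adjusted p of 0.0524 to 0.11) or sham replicate 6 for Hmmr (-0.91 to -0.83, adjusted p of 0.0719 to 0.125).

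The 13 genes that were lower on VarDR day 3 were all among the 33 that were higher on VarDR day 30, of which they are 39.4%. Mcm3, Cdc6, Bub1b, Kif23 and Anln were lower on VarDR day 3 and on all 3 acute days relative to the median gene. With equal totals Cdc6 was the only one of the 5 that passed in all 4 comparisons (-0.62 on VarDR day 3 and -1.08, -1.19 and -1.04 on acute days 2, 3 and 5), Bub1b and Kif23 passed on acute days 3 and 5, Anln on acute day 3, and Mcm3 in none. The sham mice of VarDR day 3 had the highest mean of the 7 sham groups for 29 of the 42 genes and for Alas2. Over the 42 genes, sham means spanned a median of 0.93 on the log2 scale, against a median SD of 0.52 within sham groups. The part of that sham group in the 13 calls was not tested. Leaving out irradiated replicate 1 of VarDR day 3 left 9 of the 13, with E2f8, Mcm3, Cenpf and Top2a lost, and leaving out replicate 6 gave 18. Cenpf also lost its call without irradiated replicate 3 or sham replicates 5 or 6 (log2 -1.11 to -0.77, adjusted p of 0.0592 to 0.196 over the 4 libraries). Leaving out the libraries over 0.5% liver transcripts left 1 irradiated library of acute day 3, assumed to vary like the other groups, so its count of 7 lower genes in place of 15 cannot be told apart from having fewer libraries. On VarDR day 5 it left 2 irradiated and 3 sham libraries, with 5 genes lower.

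The response to irradiation was compared between the modes at equal dose and day, as the acute minus the VarDR difference from sham. Ube2c and Nusap1 were lower in the acute mode on day 2 (log2 -3.34 ± 0.53 and -2.43 ± 0.54, limma adjusted p = 1.31e-05 and 0.0038) and day 3 (-4.37 ± 0.58 and -3.06 ± 0.59, adjusted p = 8.39e-08 and 3.38e-04). Cdc6 passed on day 2 as well (-1.67 ± 0.47, adjusted p = 0.0444). That made 3 genes on day 2 and 2 on day 3, beside 1.39% and 1.85% of all genes that were lower. As deposited, 5 were higher and 2 lower on day 2 and 21 higher and 2 lower on day 3, and with equal totals 3 and 3 on day 2 and 1 and 2 on day 3. On day 5 only Kif23 passed (-1.26 ± 0.34, adjusted p = 0.0266; 1.65% of all genes), whereas 20 were higher and none lower as deposited, and 6 and none with equal totals. How many of all genes passed in these differences as deposited or with equal totals was not counted. No gene passed on day 5 without sham replicate 6 of VarDR day 5 or without irradiated replicate 4 of acute day 5. The same measure for Alas2 was -4.20 ± 0.47, -6.30 ± 0.52 and -1.48 ± 0.46 on days 2, 3 and 5, of which the last did not pass (adjusted p = 0.0642).

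Within the acute mode, the response of day 5 exceeded that of day 2 in Ube2c (3.39 ± 0.52, limma adjusted p = 4.62e-06), Nusap1 (2.75 ± 0.53, adjusted p = 3.86e-04) and Ccna2 (2.01 ± 0.49, adjusted p = 0.0106), beside 1.36% of all genes. The same 3 genes exceeded day 3, by 4.93 ± 0.58, 3.84 ± 0.59 and 2.25 ± 0.55 (adjusted p = 2.17e-09, 2.77e-06 and 0.0105), beside 1.53% of all genes. Both comparisons use the same day 5 libraries. For Alas2 the values were 3.12 ± 0.46 and 6.28 ± 0.52. Under the VarDR mode, the day 30 response exceeded that of day 5 in 28 of the 42 genes, beside 6.7% of all genes, and in 5 with 9 lower when columns were set to equal totals. The share of all genes that passed in this difference with equal totals was not counted. Relative to the median gene, Kif11 (2.10 ± 0.33, adjusted p = 1.54e-05) and Anln (2.23 ± 0.39, adjusted p = 7.61e-05) had the smallest p. On VarDR day 5 Kif11 had 238 to 711 (median 551) in irradiated mice, against 499.8 to 1103 (median 727) in sham mice, and Anln had 125 to 551 (median 430.0) in irradiated mice, against 315 to 732 (median 475) in sham mice. Leaving out irradiated replicate 6 of VarDR day 5 gave 19 genes in place of 28.

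Which genes follow red cell transcripts was then asked within groups, where no difference between irradiated and sham mice enters. For each gene the slope of its log2 value on that of Alas2 was fitted over 80 libraries with a mean for each of the 14 groups. A gene was said to follow Alas2 where the slope was above 0 with a limma adjusted p under 0.05, and above 0 in VarDR and in acute libraries fitted alone. By this rule 31 of the 42 genes followed Alas2, beside 10.5% of all genes, and none went against it. The median slope was 0.57 over the 42 genes and -0.07 over all genes, and at a slope of 1 a gene changes in proportion to Alas2.

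**Figure D3:**
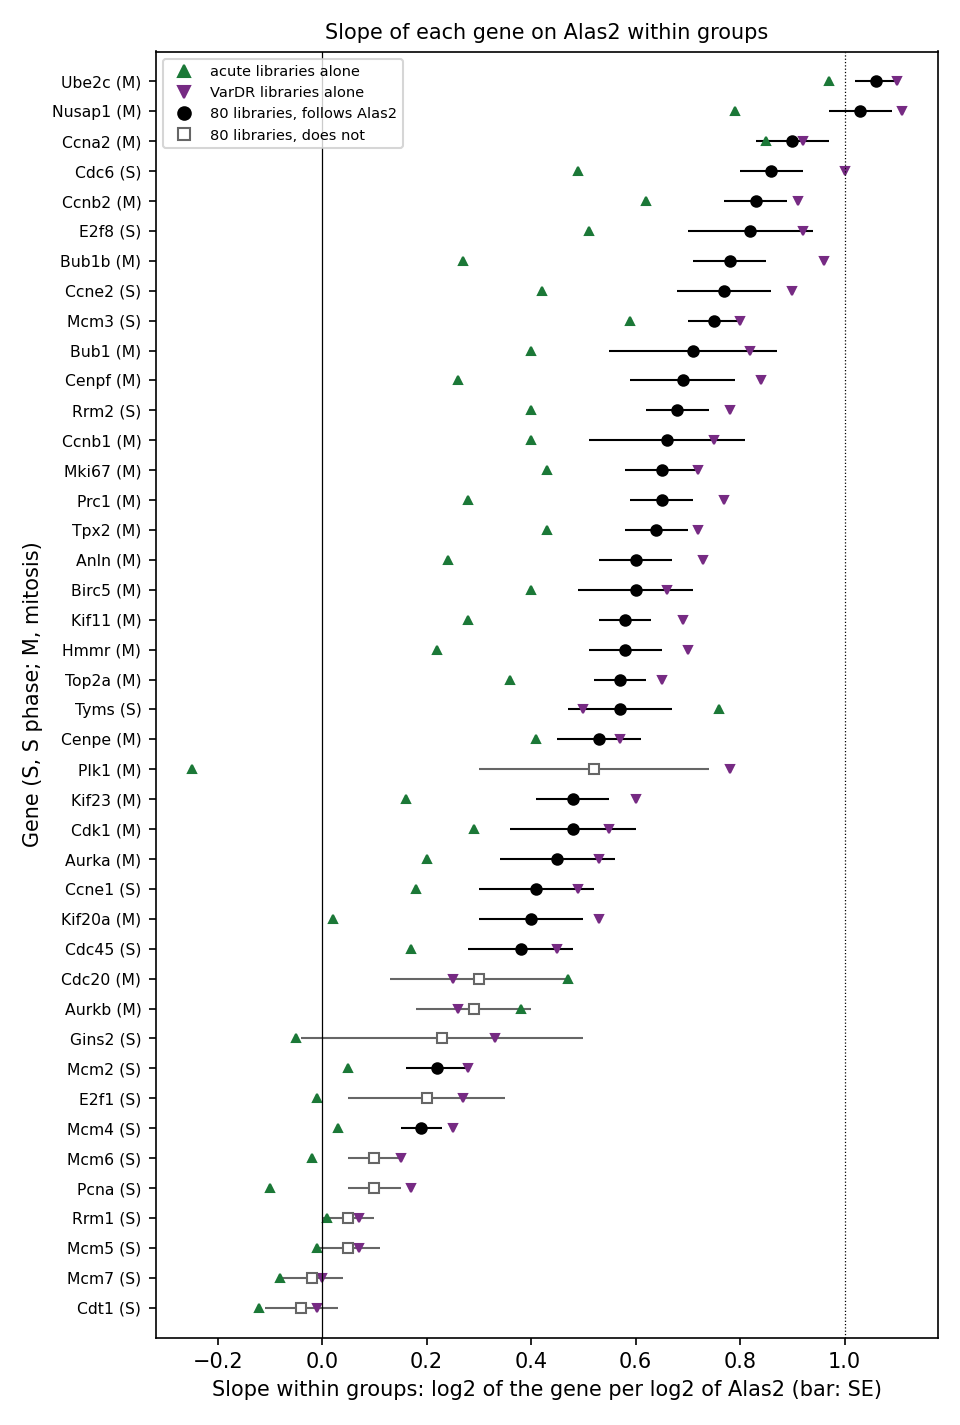
Slope of each gene's log2 value on that of Alas2 within groups (circles and squares, 80 libraries, bars SE), with acute libraries alone and VarDR libraries alone as triangles, and a dotted line at a slope of 1. Ube2c and Nusap1 lie at 1.06 and 1.03, and Mcm5, Mcm7 and Cdt1 at 0.05, -0.02 and -0.04.

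Of the mitosis genes 21 of 24 (87.5%) followed Alas2, and of the S phase genes 10 of 18 (55.6%), with median slopes of 0.60 and 0.23; the difference between these shares was not tested. The steepest were Ube2c (1.06 ± 0.04 SE, limma adjusted p = 3.33e-36, positive in 14 of 14 groups), Nusap1 (1.03 ± 0.06, adjusted p = 5.44e-27, 13 of 14) and Ccna2 (0.90 ± 0.07, adjusted p = 8.66e-20, 12 of 14). For comparison, all 22 other red cell genes followed it, with a median slope of 1.02. All 4 mitotic cyclin and CDK genes, all 11 genes of kinetochore, spindle and cytokinesis and both chromosome genes followed, along with Aurka, Bub1 and Bub1b. Among S phase genes the followers were Cdc6 (0.86 ± 0.06), E2f8 (0.82 ± 0.12), Ccne2, Mcm3, Rrm2, Tyms, Ccne1, Cdc45, Mcm2 (0.22 ± 0.06) and Mcm4 (0.19 ± 0.04). They ran from near proportion to slopes that were small but larger than their error.

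The 11 genes that did not follow were of different precision. Plk1, Cdc20, Gins2 and E2f1 had slopes of 0.52 ± 0.22, 0.30 ± 0.17, 0.23 ± 0.27 and 0.20 ± 0.15, with the widest errors of the 11. Mcm6, Pcna, Rrm1, Mcm5, Mcm7 and Cdt1 had small slopes with small errors, 0.10 ± 0.05, 0.10 ± 0.05, 0.05 ± 0.05, 0.05 ± 0.06, -0.02 ± 0.06 and -0.04 ± 0.07. Aurkb, at 0.29 ± 0.11, just missed the threshold (limma adjusted p = 0.051) and passed it with a pseudocount of 10, as deposited or with library weights.

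The set of followers depends on the scaling. With equal totals 14 genes followed Alas2: Ccne2, E2f8, Mcm3, Cdc6, Rrm2, Ccna2, Ccnb2, Bub1, Ube2c, Kif11, Tpx2, Nusap1, Top2a and Mki67, beside 2.83% of all genes. Quantile normalization left Ube2c and Nusap1, beside 0.588% of all genes, and it also left Alas2, a gene among the 10 most abundant in 71 libraries, with 16 distinct values. With the rescaled Alas2 kept as the measure, 29 followed, beside 9.02% of all genes. In sham libraries alone 25 genes followed, in irradiated libraries alone 22, in VarDR libraries alone 31, and in acute libraries alone 9, namely Mcm3, Cdc6, Tyms, Rrm2, Ccna2, Ccnb2, Ube2c, Nusap1 and Top2a. The shares of all genes that followed were 9.42%, 5.44%, 10.5% and 2.62% in that order.

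Slopes were lower in acute than in VarDR libraries for 39 of the 42 genes, with a median difference of -0.29. How many of all genes had a lower slope in acute libraries was not counted. Tested with limma over all genes, the difference passed for Bub1b (-0.69 ± 0.14, adjusted p = 0.00712), Cdc6 (-0.51 ± 0.13, adjusted p = 0.0457) and Kif11 (-0.41 ± 0.11, adjusted p = 0.0497), 3 of 42 genes beside 0.512% of all genes.

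**Figure D4:**
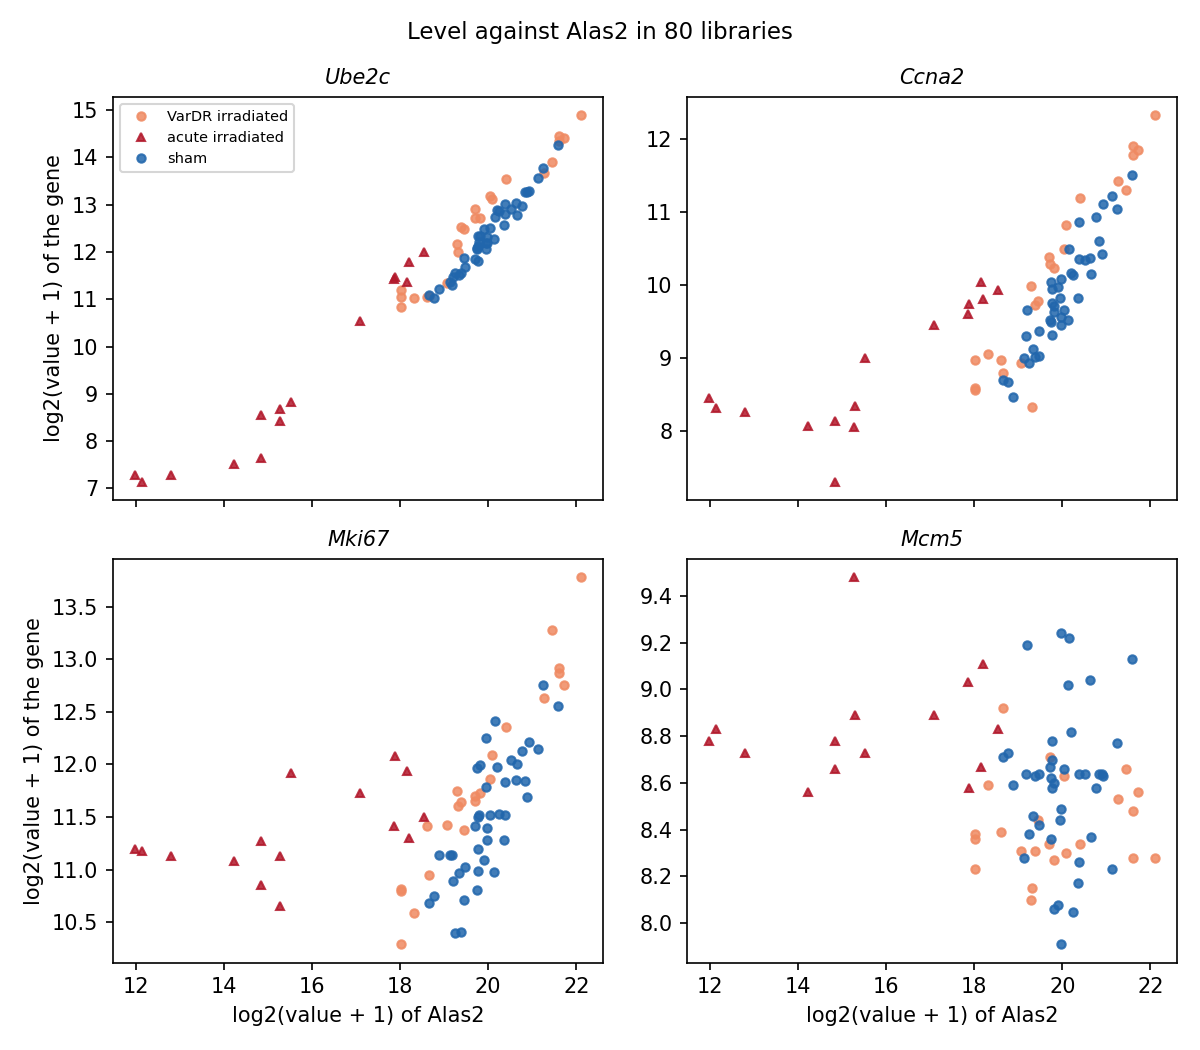
Log2(value + 1) of Ube2c, Ccna2, Mki67 and Mcm5 against that of Alas2 in 80 libraries, marked as VarDR irradiated, acute irradiated and sham. Ube2c is low together with Alas2 in the acute libraries at the left, Ccna2 and Mki67 level off there, and Mcm5 has a slope within groups of 0.05.

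Set against the differences from sham, all 31 followers were higher on VarDR day 30 relative to the median gene (median log2 difference 1.57), as were Mcm6 and Aurkb of the 11 others (median 0.25). All 13 genes lower on VarDR day 3 were followers. On acute days 2, 3 and 5, 9, 14 and 7 followers were lower, with medians of -0.41, -0.79 and -0.26, and the 11 others had medians of 0.08, 0.03 and 0.07. With equal totals, on the same days, 12, 11 and 12 followers were higher and 4, 7 and 3 lower (medians 0.39, 0.44 and 0.40), and 7, 8 and 6 of the 11 others were higher and none lower (medians 0.89, 1.26 and 0.73). On VarDR day 30 equal totals gave 2 followers higher and 2 lower (median 0.19) and 7 of the others lower (median -1.12). Alas2 itself was at log2 differences of -4.85, -8.01 and -1.73 on the 3 acute days, and the median follower differed by less than Alas2 on each day.

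The 3 genes with the smallest slopes were also followed through the days not yet given. On VarDR day 2 Mcm5 had 282, 316, 335, 384 and 484 in irradiated mice, against 385 to 584 (median 420.0) in sham mice. Mcm7 had 428, 446, 452, 464 and 496 in irradiated mice, against 437 to 603 (median 529) in sham mice, and Cdt1 had 271, 309, 318, 331 and 341 in irradiated mice, against 282 to 458 (median 401) in sham mice. None of the 3 passed. On day 3 of VarDR exposure Mcm5 had 299 to 419 (median 337) in irradiated mice, against 270.3 to 558 (median 416) in sham mice. Mcm7 had 355 to 520.1 (median 449) in irradiated mice, against 401 to 696 (median 494) in sham mice, and Cdt1 had 219 to 318 (median 286) in irradiated mice, against 222 to 358 (median 294) in sham mice. Again none passed relative to the median gene, and the ranges of irradiated and sham mice overlapped. With equal totals Mcm5, Mcm7 and Cdt1 were higher there (0.62, 0.64 and 0.73, limma adjusted p = 0.0359, 0.0363 and 0.0314). On VarDR day 5 Mcm5 had 273 to 333 (median 318) in irradiated mice, against 240.2 to 594 (median 369) in sham mice. Mcm7 had 295 to 544 (median 414) in irradiated mice, against 288 to 927 (median 474) in sham mice, and Cdt1 had 168 to 299 (median 203) in irradiated mice, against 224 to 493 (median 286) in sham mice. The sham ranges were the wider ones for Mcm5 and Mcm7. On acute day 2 Mcm5 had 376 to 714 (median 432) in irradiated mice, against 299 to 397 (median 372) in sham mice. Mcm7 had 336 to 620.3 (median 417) in irradiated mice, against 361 to 581 (median 491) in sham mice, and Cdt1 had 183 to 400.5 (median 245) in irradiated mice, against 206 to 411 (median 346) in sham mice. No difference passed there either relative to the median gene, whereas with equal totals Mcm5 and Mcm7 were higher (1.15 and 0.64). On day 5 after acute irradiation Mcm5 had 382 to 553 (median 464) in irradiated mice, against 332 to 518 (median 394) in sham mice, and Mcm7 had 372 to 546 (median 438) in irradiated mice, against 407 to 580.4 (median 499) in sham mice.

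In the promoter windows, a CHR match was found in 17 of 26 followers (65.4%) and 3 of 9 others (33.3%), and E2F letters in 3 of 26 (11.5%) and 4 of 9 (44.4%). CCAAT was present in 20 of 26 (76.9%) and 7 of 9 (77.8%). These shares mix S phase and mitosis genes, and 21 of all 31 followers were mitosis genes. Plk1 and Cdc20, the only mitosis genes with a window that did not follow, both held a CHR match. Whether CHR matches go with following among mitosis genes alone was not tested. Among the windows printed above, Ube2c and Top2a, with CHR and CCAAT matches, belong to followers, as does Cdc6, with 1 E2F match and no CHR, while Mcm5, with E2F and CCAAT matches, does not. Mcm3, whose window also held E2F and CCAAT matches and no CHR, was a follower (slope 0.75 ± 0.05). The window of Nusap1 held none of the letters searched.

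Other cell cycle genes were read from lists made with the 42. Of 54 other mitosis genes, 45 were higher and none lower on VarDR day 30 (median log2 difference 1.29, relative to the median gene), whereas with equal totals 1 was higher and 7 lower (median -0.05). Those with the smallest p were Kif4, a chromokinesin (2.05 ± 0.28), Kif15, a spindle kinesin (1.85 ± 0.27), and Ncapg2 of condensin (1.53 ± 0.24). On acute days 2 and 3, 10 and 18 of the 54 were lower and 1 was higher on each day. As deposited 10 were higher and 6 lower on acute day 2 and 19 and 7 on acute day 3, and with equal totals 24 and 5, and 27 and 5. The smallest p belonged to Cdc25b, a phosphatase that activates CDK1 (-4.54 ± 0.32 and -5.07 ± 0.40, limma adjusted p = 1.53e-18 and 2.97e-17), Pttg1, securin (-3.46 ± 0.33 and -4.51 ± 0.41), and Esco2, a cohesin acetyltransferase (-2.62 ± 0.36 and -3.31 ± 0.44). These 3 genes were lower on both days under all of these scalings. Among the 42 genes, Ube2c and Nusap1 alone had larger decreases than Esco2 on both days. Within groups, 34 of the 54 followed Alas2.

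Of 32 other S phase genes, 12 were higher and none lower on VarDR day 30 (median 0.34), against none higher and 19 lower with equal totals, and 7 followed Alas2. Prim2, a primase subunit, was higher on VarDR day 30 (1.58 ± 0.24) and lower on VarDR day 3 (-1.24 ± 0.24) and acute days 2, 3 and 5 (-1.28 ± 0.24, -2.16 ± 0.30 and -1.55 ± 0.24). Dut, which keeps uracil out of DNA, was higher on VarDR days 3 and 30 (0.76 ± 0.18 and 0.97 ± 0.18) and acute days 2, 3 and 5 (1.31 ± 0.18, 1.61 ± 0.22 and 1.20 ± 0.18), though with equal totals its VarDR day 30 difference was -0.40 (adjusted p = 0.0657). Among 18 G1 cyclins, CDKs and pocket proteins, 8 were higher and none lower on VarDR day 30, and 5 were higher and 7 lower on acute day 3. With equal totals 1 was higher and 9 lower on VarDR day 30, and 13 higher and 2 lower on acute day 3, where 11 and 2 were as deposited. E2f2, an E2F factor, had the smallest p there and on acute day 2 (-4.53 ± 0.43 on day 3 and -3.44 ± 0.35 on day 2). Of 14 CDK inhibitors and arrest genes, Ccng1, a p53 target, was higher in all 7 comparisons relative to the median gene (0.75 ± 0.11 on VarDR day 30 to 1.55 ± 0.11 on VarDR day 3), but lower on VarDR day 30 with equal totals (-0.63, adjusted p = 0.00551). Cdkn1a, the inhibitor p21, was higher on VarDR days 2, 3 and 5 (3.10 ± 0.60, 3.24 ± 0.57 and 3.96 ± 0.57). None of 17 p53 targets followed Alas2.

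Markers of other cells stood beside these counts as follows. Within groups, 13 of 14 erythroid precursor genes and 13 of 14 platelet and megakaryocyte genes followed Alas2 (median slopes 0.50 and 0.45), and none of 14 B cell, 14 T cell or 12 NK and cytotoxic genes did. On day 30 of VarDR exposure, 12 of 14 erythroid precursor genes and 12 of 14 platelet genes were higher (medians 1.51 and 1.05), against none of the erythroid precursor genes and 1 higher and 3 lower platelet genes with equal totals, and all 14 B cell genes were lower (median -1.28), as they were with equal totals. Summed over the list, erythroid precursor genes took 0.0429% to 0.0496% in irradiated and 0.0341% to 0.0461% in sham libraries there, and platelet genes 0.207% to 0.282% in irradiated and 0.249% to 0.326% in sham libraries. On acute days 2 and 3 all 14 platelet genes were higher (medians 2.15 and 2.07), at 0.917% to 3.07% in irradiated and 0.191% to 0.285% in sham libraries on day 2 and 2.63% to 3.29% in irradiated and 0.225% to 0.372% in sham libraries on day 3, and all 14 were higher on both days as deposited and with equal totals too. The 12 NK and cytotoxic genes were all higher on acute day 2 under all of these scalings, at 0.13% to 0.196% in irradiated and 0.00765% to 0.0561% in sham libraries, and 11 were on acute day 3 (12 as deposited and with equal totals), at 0.141% to 0.171% in irradiated and 0.0163% to 0.0381% in sham libraries. Of 12 monocyte genes, 4 were higher and 1 lower on acute day 3, against 11 higher and none lower as deposited and with equal totals, at 0.586% to 1.11% in irradiated and 0.0711% to 0.357% in sham libraries. All 14 B cell genes were lower on acute days 2 and 3 (medians -2.08 and -2.42), 14 and 13 as deposited and 13 and 10 with equal totals, at 0.0393% to 0.139% in irradiated and 0.069% to 0.294% in sham libraries on day 2 and 0.0504% to 0.0988% in irradiated and 0.0929% to 0.159% in sham libraries on day 3. Of 9 granule genes of immature neutrophils tested, 3 were higher on VarDR day 30 (none with equal totals), and of that list of 11, Elane and Ms4a3 were at 0 in all irradiated libraries there; the sums were 0.00197% to 0.00532% in irradiated and 0.00242% to 0.0108% in sham libraries. Of 9 stem and progenitor genes none passed there, and with equal totals 6 were lower. All 20 liver genes were higher on acute day 3, at 0.178% to 2.83% in irradiated and 0.00131% to 0.128% in sham libraries. The part of these cells in the results was not tested, apart from the counts without liver-rich libraries given above.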

How the data were processed

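Whole blood had been taken by cardiac puncture into PAXgene tubes, depleted of globin and ribosomal RNA, and made into stranded total RNA libraries, per the labels. Per the submitters' processing notes the tools were kallisto 0.44.0 and bcl2fastq 2.19 along with DESeq2 and sleuth, on GRCm38; which of them gave the values is not stated in the sources used here. The deposited gene values are a normalized signal that is not whole; 1.27% to 54.3% of low values per library were whole multiples (tolerance 0.01) of the smallest step, so reads were not recovered and depth in reads is unknown. 2 columns matched no sample and were not used, and 26 rows with date-like names, at most 0.471% of a library, were left out. Of 50365 rows, 13129 were 0 everywhere.

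Each column was divided by its median ratio to the geometric mean of the 11349 genes that were above 0 in every one of the 80 libraries. Genes with at least 10 in at least 3 libraries (21101) were fitted with limma 3.58.1 in R 4.3.3 on log2(value + 1), with 14 group means in 1 fit and robust, trended moderation. P-values are two-sided, adjusted by Benjamini-Hochberg over all genes in each of 7 comparisons and 6 response differences, with a threshold of 0.05. A ± is a standard error. A fold is 2 to the size of the log2 difference, which understates changes of low genes. The slope fit added log2 Alas2 as a term. Scripts were tested on simulated data.

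The genes, lists and tests were chosen with earlier results of these data known. Levels are given as range and median of a group, or as every value in groups of 3 or 5 libraries. They are given for the genes with the smallest p among those past the threshold in each comparison (at most 2 in each direction). In every group they are given for Alas2, the 3 genes with the largest slopes (Ube2c, Nusap1, Ccna2) and the 3 with the smallest (Mcm5, Mcm7, Cdt1). Promoter windows came from RefSeq, and overlapping genes from GENCODE M21. Alternatives were the pseudocount, the filter, the scaling, library weights, a red cell covariate, the libraries and the groups fitted.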

Additional observations from a re-analysis of the deposited data

Results flagged for a closer look

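In 4 of 117 gene and group pairs (3.42%) the highest or lowest library stood far from the others, where chance gives about 1 in 20. Mcm5 was 714 in irradiated replicate 5 of acute day 2, with the nearest library at 474. Ube2c was 12082 in sham replicate 1 of acute day 2, with the nearest at 4727. Alas2 was 2274605 in that same library, with the nearest at 1028660.3. Anln was 125 in irradiated replicate 6 of VarDR day 5, with the nearest at 343.

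The response to irradiation differed between modes or days in a test of the difference itself. For acute minus VarDR, 3, 2 and 1 of the 42 genes passed on days 2, 3 and 5. Ube2c was at -3.34 on day 2 and -4.37 on day 3, Nusap1 at -2.43 on day 2 and -3.06 on day 3, and Kif23 at -1.26 on day 5 (log2). Between VarDR day 30 and day 5, 28 genes passed, with Kif11 at 2.10 and Anln at 2.23. Between acute day 5 and day 2, 3 genes passed, with Ube2c at 3.39 and Nusap1 at 2.75. Between acute day 5 and day 3, 3 genes passed, with Ube2c at 4.93 and Nusap1 at 3.84.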

How the results depend on the processing

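No paired analysis was possible because the labels give no replicate numbers that pair libraries across groups. Counts of the 42 genes past the threshold kept within 1.5 times of the reported ones under the pseudocounts of 0.1 and 10, a mean value of at least 1 as filter, and scaling without haemoglobin and mitochondrial genes. Without any filter 0 passed on VarDR day 5. Fitting only the compared groups gave 0 on VarDR day 5 and 15 on acute day 5. Quantile normalization gave 1 on VarDR day 2 and 2 followers of Alas2, beside 0.588% of all genes that followed. Library weights gave 2 on VarDR day 2 and 17 on acute day 5, and for acute minus VarDR 11, 9 and 6 on days 2, 3 and 5, and 7 for acute day 5 minus day 3. As deposited 24 passed on acute day 5, 7, 23 and 20 for acute minus VarDR on days 2, 3 and 5, and 5 for acute day 5 minus day 2. Without libraries over 0.5% liver transcripts 5 passed on VarDR day 5, 7 on acute day 3, 1 and 3 for acute minus VarDR on days 3 and 5; this left 1 irradiated library on acute day 3, assumed to vary like the other groups, and 2 on VarDR day 5, so these counts also reflect fewer libraries. Acute libraries alone gave 9 followers, beside 2.62% of all genes. For the differences between responses, the share of all genes was not counted under any alternative.

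Columns of equal totals, tried after seeing the data, gave 1 on VarDR day 2, 11 on VarDR day 30, 23, 27 and 21 on acute days 2, 3 and 5, 6 and 6 for acute minus VarDR on days 2 and 5, 14 for VarDR day 30 minus day 5 and 14 followers. The same scaling of the other lists, of the followers and the other genes as classes and quantile normalization with the rescaled Alas2 were also chosen after seeing the data. With Alas2 as covariate 3, 4, 5 and 5 passed on VarDR days 2, 3, 5 and 30 and 30, 31 and 20 on acute days 2, 3 and 5. Over all genes 4.6%, 5.53%, 11% and 4% passed on those VarDR days and 16.2%, 15.6% and 20.5% on the acute days. All 30 and 31 genes of acute days 2 and 3 were higher, and on acute day 5, 19 were higher and 1 lower. The same covariate gave 28, 33 and 15 for acute minus VarDR on days 2, 3 and 5, 3 for VarDR day 30 minus day 5, and 19 and 27 for acute day 5 minus days 2 and 3. With a red cell score as covariate 4, 3, 7 and 7 passed on VarDR days 2, 3, 5 and 30 and 27, 26 and 14 on acute days 2, 3 and 5. For that score the share of all genes was not counted. These covariate fits reach beyond their range: within groups log2 Alas2 spread from -1.53 to 1.48 (SD 0.53), while its acute differences were -4.85, -8.01 and -1.73. The cause of these changes was not tested.

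Leaving out 1 library at a time gave 0 to 1, 9 to 18, 0 to 2 and 32 to 33 genes on VarDR days 2, 3, 5 and 30, 9 to 9, 12 to 15 and 7 to 10 on acute days 2, 3 and 5, 2 to 3, 2 to 2 and 0 to 2 for acute minus VarDR on days 2, 3 and 5, 19 to 30 for VarDR day 30 minus day 5, 2 to 4 and 3 to 4 for acute day 5 minus days 2 and 3, and 30 to 33 followers.

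Single genes past the threshold that changed sign had these log2 differences. As deposited, the values follow. For Acute day 3 they were Cdt1 0.37, Kif11 0.16 and Hmmr 0.03. For Acute day 5 they were Cdt1 0.39. With equal totals, the values follow. For VarDR day 3 they were Top2a 0.03. For VarDR day 30 they were Ccne1 -0.35, Mcm2 -0.79, Mcm4 -0.90, Mcm6 -0.91, Tyms -0.21, Aurkb -0.35, Kif20a -0.23, Prc1 -0.12, Nusap1 -0.02 and Birc5 -0.11. For Acute day 3 they were Cdt1 0.59, Kif11 0.38, Tpx2 0.10 and Hmmr 0.24. For Acute day 5 they were Cdt1 0.10. With Alas2 as covariate, the values follow. For VarDR day 3 they were E2f8 0.05, Mcm3 0.22, Cdc6 0.02, Ccnb2 0.23, Bub1b 0.05, Kif11 0.12, Tpx2 0.01, Nusap1 0.09 and Top2a 0.17. For VarDR day 30 they were Nusap1 -0.28. For Acute day 2 they were Mcm3 2.45, Cdc6 2.32, Ccna2 2.78, Ccnb2 2.88, Bub1b 2.57, Ube2c 1.28, Kif23 1.47, Nusap1 1.35 and Anln 1.76. For Acute day 3 they were Ccne2 4.09, Mcm3 4.40, Cdc6 4.51, Ccna2 5.40, Ccnb2 5.23, Bub1b 3.81, Ube2c 3.10, Kif11 3.81, Kif23 2.04, Tpx2 4.04, Prc1 3.71, Nusap1 3.51, Hmmr 3.65 and Anln 2.79. For Acute day 5 they were Ccne2 0.04, Mcm3 0.29 and Anln 0.01. With the red cell score as covariate, the values follow. For VarDR day 30 they were Nusap1 -0.29. For Acute day 2 they were Mcm3 1.52, Cdc6 1.20, Ccna2 1.84, Ccnb2 1.85, Bub1b 1.71, Kif23 0.96, Nusap1 0.24 and Anln 1.10. For Acute day 3 they were Ccne2 2.12, Mcm3 2.32, Cdc6 2.05, Ccna2 3.16, Ccnb2 2.93, Bub1b 1.81, Ube2c 0.21, Kif11 2.24, Kif23 0.83, Tpx2 2.39, Prc1 2.04, Nusap1 0.90, Hmmr 2.16 and Anln 1.25.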
